A study of Mus musculus with 16 samples.

Results

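The 10 genes described here encode the elastic fibre and the enzymes that cross-link extracellular matrix: elastin (Eln), the fibrillins Fbn1 and Fbn2, the assembly protein fibulin-5 (Fbln5), the lysyl oxidases Lox, Loxl1, Loxl2, Loxl3 and Loxl4, and the transglutaminase Tgm2. They are 10 of the 20325 genes in the expression tables, taken by symbol. They were chosen by their measured levels across the cell states and their changes against matched controls, among them the high Eln value with Jdp2 in fibroblasts. All 10 were matched in every library, and all reached 5 CPM, a count scaled to library size, in at least 1 library. Because measured values chose them, the values below are descriptions, and no test or support is drawn from them.

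RNA was sequenced from cells of OG2 mice, a transgenic line with a green fluorescent reporter driven by the Oct4 promoter, on a mixed 129SVJ, C57B6 and CBA background whose stated CBA fraction differs from label to label. The 3 embryonic stem cell (ESC) libraries, at passage 5, were wild-type (WT) cells and a TetOn line carrying c-Jun under doxycycline control, sampled at 36 h with or without doxycycline. The 6 fibroblast (MEF) libraries, at passage 2, were WT cells and cells overexpressing c-Jun, c-JunDN (a dominant-negative c-Jun), the AP-1 repressor Jdp2, Oct4, or a control that the labels call DR. The 4 libraries of reprogramming cells came from the same kind of MEF given Klf4, Sox2 and c-Myc (KSM) together with DR, Oct4, c-JunDN or Jdp2, with RNA taken on day 3. The labels do not say when the MEF overexpression cultures were sampled, whether the TetOn line is a single clone, or which promoter drives the overexpressed genes in MEF. Each group has 1 library, so no difference has a replicate check, and the 95% intervals given beside ratios cover counting error only.

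Elastic fibres form when tropoelastin, the soluble product of Eln, is deposited on a scaffold of fibrillin microfibrils, a step that fibulin-5 helps to guide. Lysyl oxidases then oxidise lysine residues of elastin and collagen, and the reactive aldehydes join into covalent cross-links that make the matrix insoluble. Tgm2 makes a different bond, between glutamine and lysine side chains, in fibronectin, fibrillin and other matrix proteins. Fibroblasts and smooth muscle cells are known producers of these proteins. AP-1 factors such as c-Jun bind DNA elements of the form TGANTCA, and Jdp2 binds such elements as a repressor.

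RefSeq promoter sequences were matched for 3 of the 10 genes (Fbn1, Fbln5 and Loxl4). Windows that overlapped the annotated gene were left out, which left those of Fbln5 and Loxl4 and none for Fbn1. Among the 10, the difference between MEF and KSM cells with DR was largest for Fbln5 and smallest for Loxl4, but the windows were not chosen by it. Each window holds the 250 bases before the annotated start in GRCm38.p6, minus strand, at chr12:101819120-101819369 for Fbln5 and chr19:42612807-42613056 for Loxl4. Capitals mark GGGCGG on either strand, a GC box motif chosen after the sequences were seen.
Fbln5: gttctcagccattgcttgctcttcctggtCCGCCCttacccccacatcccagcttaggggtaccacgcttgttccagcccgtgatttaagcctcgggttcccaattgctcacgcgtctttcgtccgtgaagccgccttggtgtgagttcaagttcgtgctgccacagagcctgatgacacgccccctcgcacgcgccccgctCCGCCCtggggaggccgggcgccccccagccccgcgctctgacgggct
Loxl4: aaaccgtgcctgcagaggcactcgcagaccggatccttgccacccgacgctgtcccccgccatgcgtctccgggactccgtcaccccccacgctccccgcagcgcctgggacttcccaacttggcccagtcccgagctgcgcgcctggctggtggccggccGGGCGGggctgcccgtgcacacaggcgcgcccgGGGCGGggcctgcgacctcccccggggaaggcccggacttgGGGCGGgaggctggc
The Fbln5 window held 2 matches to GGGCGG and the Loxl4 window held 3, and 32.7% of all 32851 promoter windows of this length held at least 1. Bases G and C made up 65.2% of the Fbln5 window and 76% of the Loxl4 window, and the median window had 52.4%. Neither TGANTCA, present in 6.75% of windows, nor the CRE element TGACGTCA, present in 1.55%, occurred on either strand of these windows. A match describes letters only, and the absence of these letters from a window says nothing about either factor elsewhere.

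Libraries outside the WT pair held between 1837507 and 3440917 expected counts, and the WT libraries held 12173100 (ESC) and 21415021 (MEF). A floor of 3 counts equalled 0.835 to 1.50 CPM outside the WT pair. The introduced genes matched their labels: Jun was at 2015 CPM with doxycycline against 21.2 without, and at 11965 (c-Jun) and 3968 CPM (c-JunDN) in MEF against 88.5 with DR, and Jdp2 was at 7226 against 76.9 CPM. In KSM cells the introduced genes were lower, with Jdp2 at 366 against 2.94 CPM and Jun at 352 with c-JunDN against 67.0. The ESC marker list, summed over 7 genes, was at 5112 CPM in WT ESC, 6222 in the uninduced line and 1208 with doxycycline. All 7 genes were at 5 CPM or more in each of these libraries. The fibroblast list was carried by all MEF libraries (11004 to 54369.7 CPM over 9 genes). The WT ESC library also held 1210.5 CPM of fibroblast markers, 7 of 9 at 5 CPM or more, against 25.3 CPM in the uninduced line, and every value set against WT ESC carries this difference. Most of that WT ESC sum was Col1a1, Col1a2 and Col3a1 (441, 357 and 363 CPM). In these bulk libraries, fewer cells of a type and less RNA per cell cannot be told apart.

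All 10 genes were higher in WT MEF than in WT ESC at 2-fold or more, where 53.7% of 11693 genes tested were called, 24.3% higher and 29.4% lower. A gene was called higher or lower when it reached 5 CPM in 1 of the 2 libraries and its ratio of CPM plus 1 was at least 2-fold. Elastin showed the widest gap, 431 against 0.891 CPM, a ratio of 484 (95% interval 263 to 1009). Tgm2 showed the narrowest, 106 against 18.8 CPM, a ratio of 5.65 (4.89 to 6.55). The other 8 lay between 26.0-fold (Loxl2) and 58.8-fold (Loxl3). The members' median log2 change was 5.50, and that of all genes tested was -0.19.

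On the per-length TPM scale, Lox was the most abundant of the 10 transcripts in WT MEF at 2398 TPM, ahead of Fbn1 at 953 and Loxl2 at 868 TPM. Eln stood at 244 TPM there. Lox, whose product is the founding enzyme of the family, was also the most abundant in DR and c-JunDN MEF. In c-Jun MEF and Oct4 MEF the most abundant member was Loxl2, in Jdp2 MEF it was Eln, in induced ESC it was Tgm2, and in KSM cells it was a fibrillin.

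Elastin had the widest range of the 10 genes over the 13 libraries, from 0 counts to 5963 CPM. Within MEF it stood at 431 CPM in WT cells, 54.6 with DR, 5.00 with c-Jun, 855 with c-JunDN, 5963 with Jdp2 and 0.499 with Oct4. From Jdp2 down through c-JunDN, WT, DR and c-Jun, each level was separated from the next beyond counting error. In KSM cells it stood at 1.1 CPM with DR, 0.278 with Oct4, 6.28 when c-JunDN was added and 6.41 with Jdp2, and the last pair did not differ beyond counting error. In ESC it stood at 0.891 CPM in WT cells, 0.678 with doxycycline and 0 without.

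**Figure D1:**
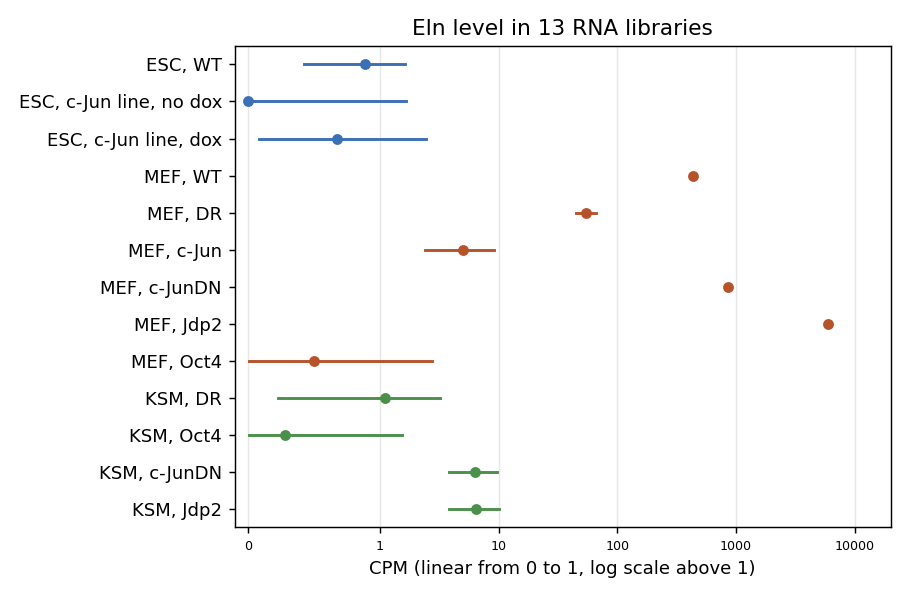
Level of Eln in each of the 13 RNA libraries, as CPM on an axis that is linear from 0 to 1 and logarithmic above, with 95% Poisson intervals of the count. Jdp2 MEF (5963 CPM) and c-JunDN MEF (855) lie above WT MEF (431), and DR (54.6), c-Jun (5.00) and Oct4 MEF (0.499) lie below it.

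Against DR, elastin was 109-fold higher with Jdp2 (90.7 to 133), from 113 to 11934 counts, and 15.6-fold higher with c-JunDN (12.9 to 19.1). It was 10.9-fold lower with c-Jun (5.73 to 23.4), at 10 counts. With Oct4 it was down to 1 count, a ratio of 109 (19.3 to 4363). All these MEF comparisons share the DR library, and DR itself held 7.88-fold less Eln than WT MEF (6.55 to 9.58). Set against WT MEF, the Jdp2 library was still 13.8-fold higher (13.4 to 14.3), but the c-JunDN library was 1.98-fold higher, a log2 change of 0.99 that no longer reached the 2-fold threshold.

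Markers of smooth muscle, another elastin-producing cell type, had a different order from elastin in MEF. Their summed level over 8 markers was 9536 CPM in WT MEF, 4473 with DR, 1174 with c-Jun, 3689 with c-JunDN, 2848 with Jdp2 and 2276 with Oct4, with 6 to 8 markers at 5 CPM or more. The sum is mostly Acta2, the smooth muscle actin gene, and Tagln, an actin-binding protein, so it says little of the other 6. Acta2 was at 2841 CPM with DR, 1363 with Jdp2 and 2173 with c-JunDN, and Tagln at 1237, 1197 and 1125 CPM. The markers did not move one way in the 2 libraries with the most Eln: Myh11, the smooth muscle myosin, was at 82.2 CPM with DR, 58.0 with Jdp2 and 57.0 with c-JunDN, but Smtn was at 71.1, 89.4 and 95.6 CPM and Myocd, a smooth muscle transcriptional coactivator, at 2.42, 6.50 and 6.97 CPM. The part of this list in the Eln values was not tested.

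In KSM cells elastin was near the floor. It went from 3 counts with DR to 20 with c-JunDN, a ratio of 5.69 (1.69 to 29.9), and to 19 with Jdp2, a ratio of 5.81 (1.71 to 30.6). Both passed the 2-fold threshold, as their MEF counterparts had. The higher of these levels was still 8.52-fold below that of DR in MEF.

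The fibrillins form the microfibril scaffold, and Fbn1 is the main adult form. Fbn1 was at 4423 CPM in WT MEF, 2064 with DR, 1061 with c-Jun, 2268 with c-JunDN, 1222 with Jdp2 and 635 with Oct4. Against DR, it passed the threshold only with Oct4, where it was 3.25-fold lower (3.05 to 3.46). With c-Jun its log2 change was -0.96, just inside the threshold. DR itself was 2.14-fold below WT MEF (2.08 to 2.21).

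Fbn2, the fibrillin known for its embryonic expression, was at 1107 CPM in WT MEF, 753 with DR, 72.5 with c-Jun, 537 with c-JunDN, 357 with Jdp2 and 299 with Oct4. It was 10.4-fold lower with c-Jun (8.76 to 12.4), 2.52-fold lower with Oct4 and 2.11-fold lower with Jdp2. The c-Jun library was the lowest of the 6, and none of the other MEF libraries was below 299 CPM. As a share of summed fibrillin TPM, Fbn2 made up 25.6% with DR and 6.06% with c-Jun.

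Fbln5 followed neither fibrillin in MEF. It was at 1283 CPM in WT MEF, 659 with DR, 152 with c-Jun, 984 with c-JunDN, 954 with Jdp2 and 1202 with Oct4. Only the c-Jun library stood apart, 4.32-fold below DR (3.81 to 4.91). With Oct4, where elastin was at 1 count, Fbln5 was 1.82-fold above DR, a log2 change of 0.87 inside the threshold.

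Among the lysyl oxidases, Lox and Loxl2 had opposite orders under c-Jun and Jdp2. Lox was at 4043 CPM in WT MEF, 2239 with DR, 392 with c-Jun, 2229 with c-JunDN, 880.4 with Jdp2 and 635 with Oct4. Loxl2, an enzyme that also acts inside the cell, was at 2105, 1059.5, 2039.8, 984, 211 and 1221 CPM in the same order of libraries. Lox was thus lowest with c-Jun, 5.71-fold below DR (5.29 to 6.16), and Loxl2 lowest with Jdp2, 5.02-fold below DR (4.53 to 5.59). Loxl2 with c-Jun had a log2 change of 0.94, just inside the threshold, and did not differ from WT MEF beyond counting error.

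The other lysyl oxidases varied less in MEF. Loxl1, which is required for elastic fibre renewal in mice, lay between 146 (Oct4) and 783 CPM (c-Jun), and it passed the threshold against DR only with Oct4, 3.56-fold lower (3.13 to 4.07). Loxl3 lay between 90.9 (Jdp2) and 346 CPM (WT) and was 2.51-fold below DR with Jdp2. Its locus overlaps Htra2, which was counted separately, and whether the authors' counting used strand is not stated, so Loxl3 values are uncertain. Loxl4 lay between 44.0 (Jdp2) and 171 CPM (WT), and none of its 4 changes against DR passed the threshold.

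The make-up of lysyl oxidase transcripts moved with these values. In TPM summed over the 5 genes, Lox made up 59.0% with DR, 60.7% with c-JunDN and 54.5% with Jdp2, but 13.7% with c-Jun and 32.4% with Oct4. Loxl2 made up 49.6% with c-Jun, 48.9% with Oct4 and 9.08% with Jdp2. The sum itself was 3759 TPM in WT MEF, 2331 with DR, 1756 with c-Jun, 1048 with Jdp2 and 960.3 with Oct4, with 2270.2 for c-JunDN. The Oct4 library was quantified by the authors on another annotation, and its per-length values are less comparable with the rest.

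**Figure D2:**
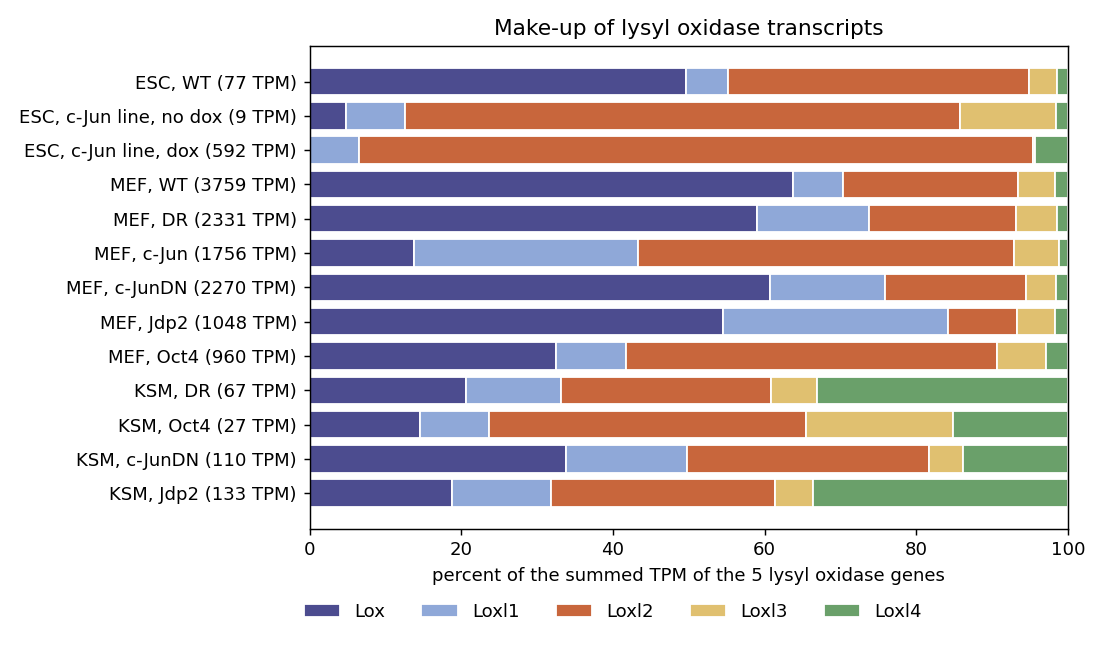
Share of each lysyl oxidase in the summed TPM of the 5 genes, one bar per RNA library, with the sum in brackets. Lox fills 59.0% of the bar in DR MEF and 13.7% in c-Jun MEF, Loxl2 fills 88.9% in induced ESC, and Loxl4 fills 33.0% in KSM cells with DR.

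Tgm2 in MEF was at 106 CPM in WT cells, 55.6 with DR, 121 with c-Jun, 65.6 with c-JunDN, 15.5 with Jdp2 and 5.99 with Oct4. It was the only one of the 10 genes past the 2-fold threshold upwards with c-Jun against DR, at 2.18-fold (1.74 to 2.74). Loxl2, at 1.93-fold (1.83 to 2.03), and Loxl1, at 1.51-fold (1.40 to 1.63), were above DR beyond counting error but inside that threshold. Set against WT MEF, Tgm2 with c-Jun had a log2 change of 0.19, inside the threshold. With Jdp2 it was 3.59-fold lower than with DR (2.40 to 5.53) and with Oct4 9.29-fold lower (5.12 to 18.5).

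By count, c-Jun in MEF left 1 of the 10 genes higher and 4 lower than DR, where 17.3% of all genes tested were called (7.75% higher, 9.54% lower). With c-JunDN 1 was higher and 0 lower, against 5.96% of all genes called (3.25% higher, 2.71% lower). With Jdp2 1 was higher and 5 lower, against 12.1% (5.81% higher, 6.32% lower). With Oct4 0 were higher and 6 lower, against 21.6% (11.5% higher, 10.1% lower). The members' median log2 change was -0.85 with c-Jun, -0.01 with c-JunDN, -1.02 with Jdp2 and -1.51 with Oct4, and that of all genes tested lay between 0.00 and 0.01 in these comparisons. Fibroblast markers, 9 of 9 at 5 CPM or more in each library, summed to 30926 CPM with DR, 13543 with c-Jun, 29139 with c-JunDN, 24049 with Jdp2 and 11004 with Oct4. Most of each sum was the collagen genes Col1a1, Col1a2 and Col3a1 (11350, 10548 and 6875 CPM with DR), so it says little of the other markers. The part of the fibroblast list in these values was not tested. DR against WT MEF left 0 higher and 2 lower (Eln and Fbn1), against 20.0% of all genes called (9.56% higher, 10.4% lower), with a median log2 change of -0.94 for the members and -0.11 for all genes.

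**Figure D3:**
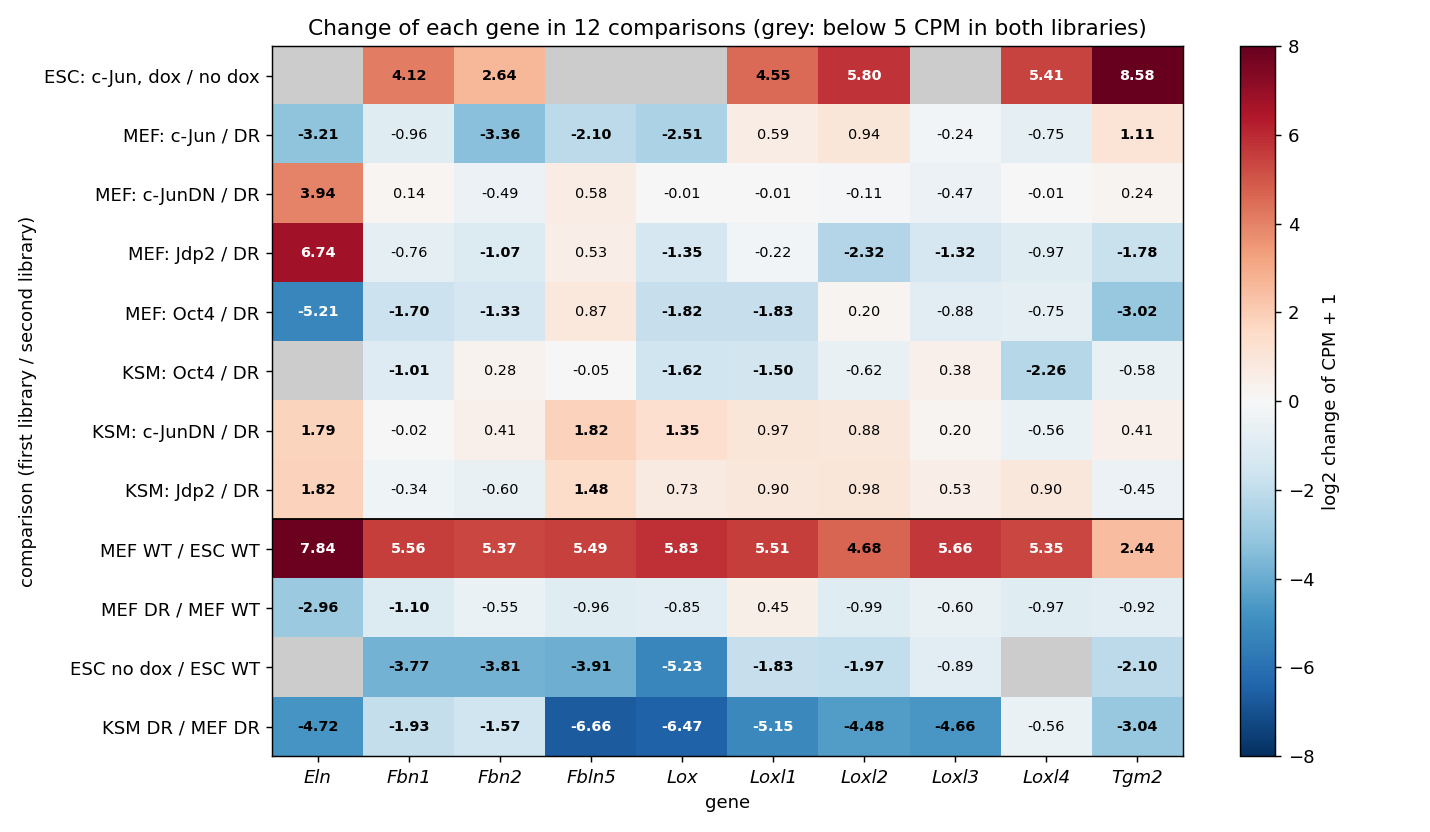
Log2 change of CPM plus 1 for each gene (columns) in 12 comparisons (rows), with values past the 2-fold threshold in bold and cells below 5 CPM in both libraries in grey. The colour scale ends at 8, and Tgm2 in ESC lies beyond it at 8.58. Eln is higher with c-JunDN (3.94) and Jdp2 (6.74) and lower with c-Jun (-3.21) and Oct4 (-5.21) in MEF.

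In ESC, 36 h of c-Jun induction left 6 of the 10 genes above the uninduced line, and the other 4 (Eln, Fbln5, Lox and Loxl3) stayed below 5 CPM in both libraries. Of all genes tested, 40.4% were called, 21.5% higher and 18.9% lower. The uninduced library held 0 to 44 counts of each member, so a member could pass the 5 CPM filter only through its induced value except Fbn1 and Loxl2. The median of the 6 log2 changes was 4.98, that of all 10 without the filter was 3.38, and that of all genes tested was -0.07.

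Tgm2 went from 8 to 5192 counts, from 3.61 to 1759.5 CPM, a ratio of 487 (247 to 1128). At 1165 TPM it was the most abundant of the 10 transcripts there, and its CPM was 14.5-fold that of the next library, c-Jun MEF. Loxl2 went from 19.9 to 1161 CPM, a ratio of 58.4 (43.4 to 80.5), which placed induced ESC beside Oct4 MEF within counting error. These genes were also above WT ESC, Tgm2 by 93.6-fold (81.6 to 108) and Loxl2 by 14.3-fold (13.3 to 15.4).

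Loxl1 went from 1.36 to 54.2 CPM, from 3 to 160 counts, a ratio of 40.0 (13.4 to 196). Loxl4 went from 0.452 to 60.7 CPM, from 1 to 179 counts, a ratio of 134 (23.8 to 5332.5). Fbn1 went from 5.87 to 119 CPM, a ratio of 20.2 (11.7 to 38.3). Fbn2 went from 0.904 to 10.8 CPM, from 2 to 32 counts, a ratio of 12.0 (3.06 to 103). Loxl1 and Loxl4 were also above WT ESC, by 7.33-fold and 18.9-fold, but Fbn1 was 1.28-fold above it, inside the threshold, and Fbn2 was 2.37-fold below it (1.64 to 3.54).

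Lox and Loxl3 stayed low with induction in ESC, unlike Loxl1, Loxl2 and Loxl4. Loxl3 had 6 counts in each library of the line, 2.71 CPM without doxycycline and 2.03 with it. Lox was at 70.2 CPM in WT ESC, 0.904 in the uninduced line and 0.678 with doxycycline, which is 2 counts in each library of the line. Loxl2 accordingly made up 88.9% of lysyl oxidase TPM in induced ESC, and Lox 0.0746%. Against WT ESC, the uninduced line was lower for 7 of 8 measured members, where 24.5% of all genes were called (6.17% higher, 18.3% lower), with a median log2 change of -2.94 for the members and -0.18 for all genes. Fibroblast markers were higher in WT ESC than in the line, as given above, and their part in that difference was not tested.

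The ESC marker list summed to 1208 CPM with doxycycline against 6222 without. Dppa5a (449 against 2296) and Pou5f1 (452 against 1653) made up most of both sums. Markers of other cell types also moved with c-Jun induction in ESC. The smooth muscle list summed to 556 CPM with doxycycline against 66.4 without, led by Des (211 against 5.42), Smtn (170.5 against 33.0) and Tagln (144 against 19.4), with Myh11 at 0. The fibroblast list summed to 519.5 against 25.3 CPM, mostly through Col1a1 (471 against 6.33). Col1a2 was at 10.8 against 8.13 CPM, Col3a1 at 3.73 against 2.26 and Dcn at 0.339 against 0.452. The macrophage list summed to 111 against 11.3 CPM, which was Csf1r (74.6 against 0) and Cd68 (36.3 against 11.3). The other macrophage markers were at 0 in both libraries. The trophoblast list summed to 474 against 8.58 CPM, mostly Hand1 (334 against 2.26) and Esx1 (94.6 against 1.81). Cdx2 was lower (2.37 against 4.52) and Tpbpa was at 0 in both. The epithelial list summed to 4571 against 554 CPM. Krt8 (2183 against 23.0), Krt18 (849 against 15.8), Krt19 (506 against 2.71) and Cdh1 (921 against 399) were higher, and Epcam was at 112 against 113. The part of these lists in the members' values was not tested.

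Under c-Jun, 6 members and 23 genes of the related lists were measured in both cell states. The 23 are elastic fibre partners, collagens, and modifying or elastin-degrading enzymes. Tgm2 was the only member called in the same direction in both, 8.58 in ESC and 1.11 in MEF on the log2 scale. The share of all genes called in the same direction in both was not computed. Loxl2 had 5.80 and 0.94, and Loxl1 4.55 and 0.59, with the MEF value inside the threshold in each case. Fbn2 had 2.64 in ESC and -3.36 in MEF.

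**Figure D4:**
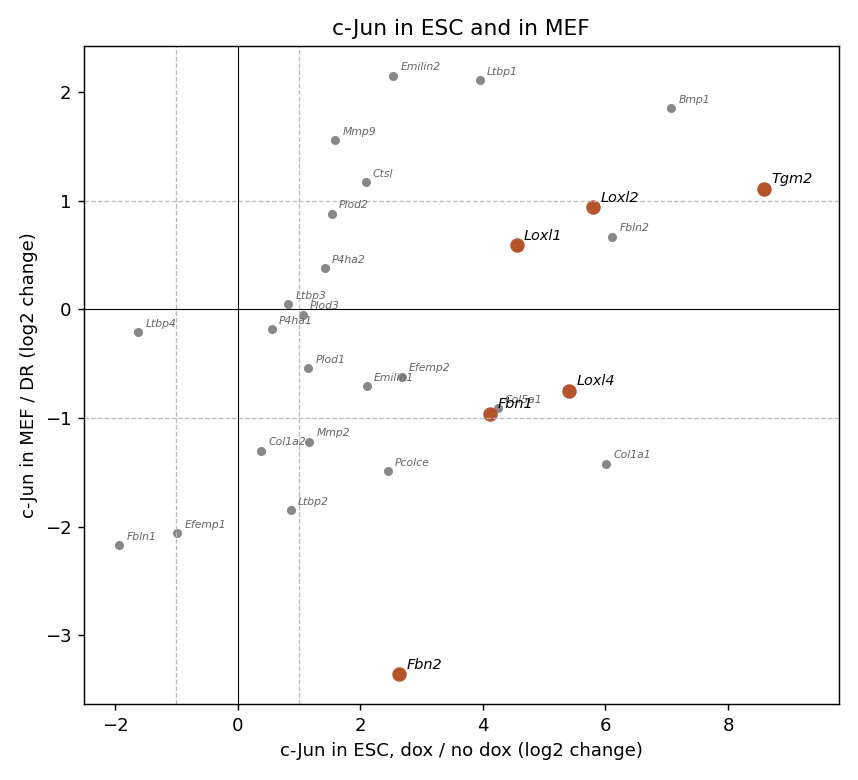
Log2 change with c-Jun in ESC (horizontal, doxycycline against none) and in MEF (vertical, against DR) for the 6 members (orange) and 23 related genes (grey) measured in both. Dashed lines mark 2-fold. Tgm2 lies past 2-fold in both, and Fbn2 lies at 2.64 in ESC and -3.36 in MEF.

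KSM cells with DR held less of 9 of the 10 genes than MEF with DR, where 38.2% of all genes tested were called, 18.1% higher and 20.1% lower. The members' median log2 change was -4.57 and that of all genes 0.04. Fbln5 had the largest ratio, from 659 to 5.52 CPM (119-fold lower, 72.1 to 214), then Lox, from 2239 to 24.3 CPM (92.2-fold lower, 72.3 to 119). The fibrillins had the smallest among those called, 3.83-fold for Fbn1 and 2.98-fold for Fbn2. Loxl4 was at 58.5 against 87.0 CPM, a log2 change of -0.56 inside the threshold. It made up 33.0% of lysyl oxidase TPM in KSM cells with DR and 1.52% in MEF with DR. The fibroblast marker sum was 1262 against 30926 CPM, with 9 of 9 markers at 5 CPM or more in both. Col1a1, Col1a2 and Col3a1 made up most of both sums (392, 322 and 373 CPM in KSM cells with DR). The part of the fibroblast list in these values was not tested.

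**Figure D5:**
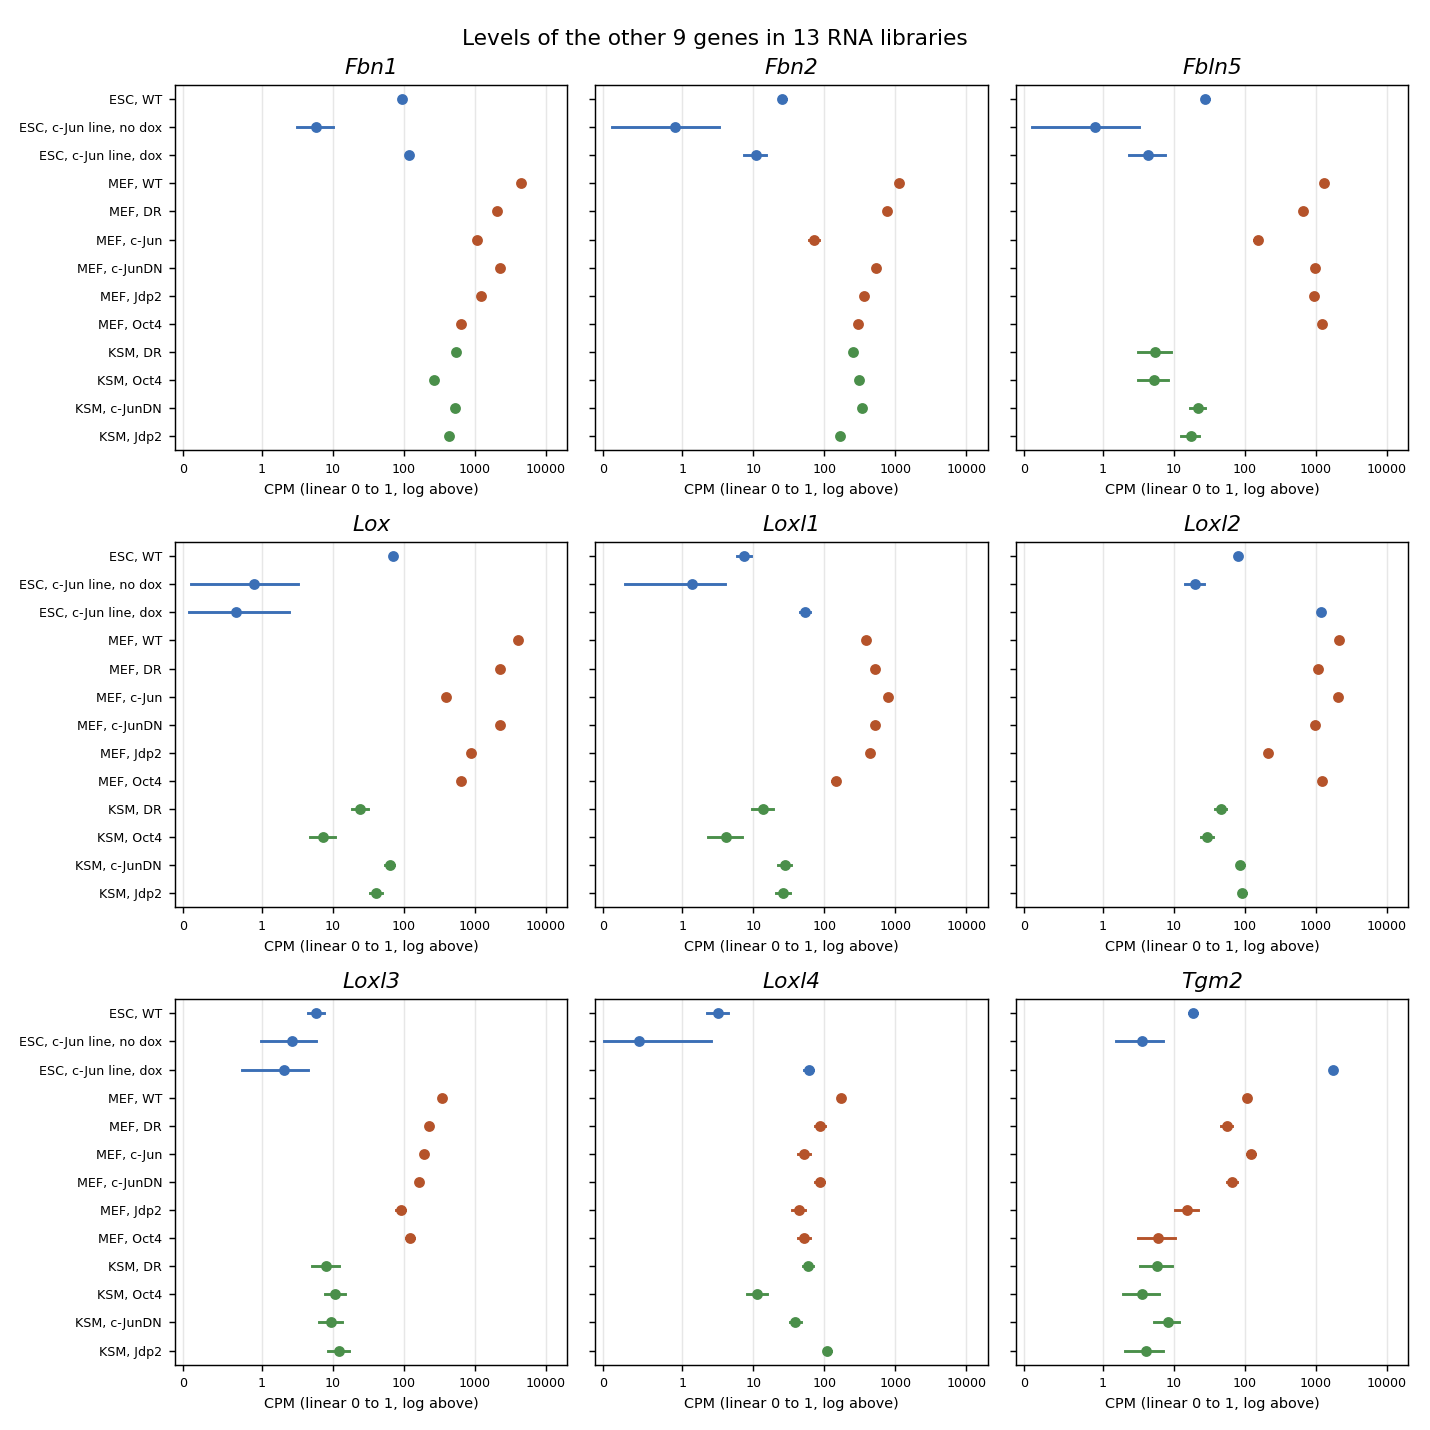
Levels of the other 9 genes in each of the 13 RNA libraries (blue ESC, orange MEF, green KSM), as CPM on an axis linear from 0 to 1 and logarithmic above, with 95% Poisson intervals. Fbln5, Lox and Loxl3 sit at least 6.18-fold lower in every KSM library than in every MEF library, and Loxl1 at least 5.27-fold. Loxl4 in KSM cells with Jdp2 (110.4 CPM) lies above 5 of the 6 MEF libraries.

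Within KSM cells, c-JunDN left 3 of the 10 genes higher than DR (Eln, Fbln5 and Lox) and 0 lower, where 3.43% of all genes were called (1.81% higher, 1.62% lower). Fbln5 was at 5.52 CPM with DR, 5.29 with Oct4, 22.0 for c-JunDN and 17.2 for Jdp2, so it was 3.98-fold higher with c-JunDN (2.26 to 7.49) and 3.12-fold higher with Jdp2 (1.73 to 5.97). Lox was at 24.3, 7.24, 63.5 and 40.8 CPM in the same order, 2.61-fold higher with c-JunDN (1.97 to 3.50). Jdp2 left 2 higher (Eln and Fbln5) and 0 lower, against 3.99% of all genes called (2.68% higher, 1.31% lower). Eln entered both counts only through its level with the added factor, as given above.

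Among the remaining lysyl oxidases, Loxl1 and Loxl2 sat just inside the threshold in those libraries. Loxl1 was at 13.6 CPM with DR, 27.6 with c-JunDN and 26.3 with Jdp2, log2 changes of 0.97 and 0.90. Loxl2 was at 46.4, 86.4 and 92.2 CPM, log2 changes of 0.88 and 0.98. Loxl4 was at 58.5, 39.3 and 110.4 CPM, and its log2 changes of -0.56 and 0.90 had opposite signs. Loxl3 was at 8.10, 9.43 and 12.2 CPM, log2 changes of 0.20 and 0.53 whose counting intervals include no change. The members' median log2 change was 0.65 with c-JunDN and 0.81 with Jdp2, and that of all genes tested was 0.05 and -0.03. The fibroblast list summed to 1621 (c-JunDN) and 2032 CPM (Jdp2) against 1262 with DR, most of it 3 collagen genes. Col1a1 (610, 718 and 392 CPM) and Col1a2 (449, 783 and 322) were higher than with DR, but Col3a1 (308, 286 and 373) was lower. The chondrocyte list summed to 135 (c-JunDN) and 163 CPM (Jdp2) against 43.8 with DR, nearly all of it Col2a1 (128, 151 and 40.1 CPM) with Acan at 0. The epithelial list summed to 285 and 592 CPM against 719, mostly Krt8 (199, 379 and 515 CPM). With Jdp2, Krt19 was also lower than with DR (103 against 142). Cdh1 (50.3 against 30.2), Epcam (19.9 against 13.3) and Krt18 (38.8 against 18.0) were higher with Jdp2. The part of these lists in these values was not tested.

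Oct4 in KSM cells left 0 of 9 measured members higher and 4 lower, where 11.3% of all genes were called (4.65% higher, 6.67% lower). Loxl4 was 5.13-fold lower (3.62 to 7.42), from 58.5 to 11.4 CPM, and Lox, Loxl1 and Fbn1 were 3.36-fold, 3.26-fold and 2.02-fold lower. Fbn2, by contrast, was at 306 CPM with Oct4 and 253 with DR, and made up 52.1% of fibrillin TPM with Oct4 and 30.7% with DR. The median log2 change was -0.62 for the members and 0.07 for all genes. The ESC marker sum was 2416 CPM with Oct4 and 592 with DR. Nearly all of it came from Pou5f1 and Sox2, which are themselves introduced genes. Pou5f1 gave 1711 CPM with Oct4 and 4.05 with DR, and Sox2 gave 698 and 583. The epithelial list summed to less with Oct4, at 112 against 719 CPM, mostly through Krt8 (38.1 against 515) and Krt19 (7.51 against 142). Krt18 was also lower (6.68 against 18.0), but Cdh1 (37.6 against 30.2) and Epcam (22.0 against 13.3) were higher. The chondrocyte list summed to 5.57 against 43.8 CPM, mostly through Col2a1 (3.34 against 40.1). The fibroblast list summed to 1469 CPM with Oct4 and 1262 with DR, mostly collagen genes. Col1a2 (473 against 322) and Col3a1 (637 against 373) were higher with Oct4, and Col1a1 (169 against 392) was lower. The part of these lists in the members' values was not tested. All 3 KSM comparisons share the DR library.

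Partners of the elastic fibre were read beside the members as a list of 13 genes: fibulins, Efemp1, Efemp2, microfibril-associated proteins, latent TGF-beta binding proteins and emilins. With Jdp2 in MEF, 2 of 13 were higher and 5 lower than DR. Mfap4, a microfibril protein that binds elastin, was at 705 CPM with Jdp2, 457 with c-JunDN, 243 with DR, 27.5 with c-Jun and 5.49 with Oct4. These 5 libraries fall in the same order for Eln, but WT MEF does not: its Mfap4, at 103 CPM, was below DR, and its Eln, at 431 CPM, above DR. Fbln2 was 5.10-fold lower and Efemp1 4.72-fold lower with Jdp2. With c-Jun 3 were higher and 4 lower, among them Mfap4 (-3.10), Mfap5 (2.30) and Fbln1 (-2.17 on the log2 scale). With Oct4 0 were higher and 7 lower, led by Mfap4 (-5.23), Fbln1 (-3.76) and Ltbp4 (-2.40). With c-JunDN 1 was higher, Mfap5 at 2.60, and 2 were lower.

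In ESC, c-Jun induction left 5 of 10 measured partners higher and 2 lower. Fbln2 was at 441 CPM against 5.42, Ltbp1, which tethers latent TGF-beta to microfibrils, at 498 against 31.2, and Efemp2, which is required for elastic fibre assembly, at 46.1 against 6.33. In KSM cells 0 of 10 measured partners were higher and 6 were lower with Oct4, and 0 of 11 were called with c-JunDN or with Jdp2. The share of all genes called in each of these comparisons is given above.

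Over the 12 libraries quantified on the same annotation, the log2 levels of Fbln5 and Lox (Pearson r = 0.97) and of Lox and Loxl3 (0.94) went together most closely among the 10, and Eln and Tgm2 had r = 0.18. The genes whose levels were most like Eln were Fmod (0.977), C1qtnf7 (0.973), Hmcn1 (0.969), Foxs1 (0.961) and Mylk (0.956). Fmod, a collagen-binding proteoglycan, was at 724 CPM in Jdp2 MEF, 117 with c-JunDN, 53.7 with DR and 0.500 with c-Jun. Most like Loxl2 were Pvrl1 (0.973), Sgpl1 (0.971), Dysf (0.97), Capzb (0.969) and Jak1 (0.963), and most like Tgm2 were Tspan9 (0.946), Csf1r (0.937), Des (0.931), Wfs1 (0.93) and Erlin2 (0.917). These libraries share cell type, controls and depth, so the values describe these libraries and carry no test.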

How the data were processed

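RNA of 13 libraries was extracted with Trizol and prepared with a TruSeq RNA kit, per the labels' protocols. The authors quantified it with RSEM 1.1.21 on mm9, per the submitters' processing notes. The aligner of the RNA reads is not given in the sources used here. The deposited expected counts per gene were rounded to whole numbers. The deposited fraction of transcripts, a per-length value that sums to 1 in each of 12 libraries, was scaled to TPM. For the MEF Oct4 library the authors deposited expected counts and TPM on Ensembl genes. Of its 27729 IDs, 27247 had a symbol, and 19661 names, holding 96.89% of its counts, were shared with the other libraries. It was scaled to DR on those genes.

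Scaling to CPM used TMM factors (edgeR 4.0.16, R 4.3.3). A pseudocount of 1 was added to CPM before log2 ratios were taken. Exact conditional binomial 95% intervals came from SciPy 1.17.1. Genes below 5 CPM in both libraries of a comparison were not measured, and 2-fold was the threshold for a call. With 1 library per group, and no label naming separate cultures, no test or p-value was made. Where a ratio rests on 1 to 3 counts, its interval is printed. Scripts were tested on simulated counts. No libraries held identical values.

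All 10 members are named. Of each related list, up to 3 called genes with the largest change were eligible, and Mfap4 with Jdp2 and c-JunDN, which falls outside that rule, and markers named singly were picked with their values known. The members, lists and markers were chosen with earlier results of these data known. Emr1 stands for Adgre1, which the tables do not list. Alternatives were DESeq2 1.42.0 size factors, total count scaling, TPM, no filter, a pseudocount of 0.25 and WT controls. The peaks of c-Jun and c-JunDN, and the input, were not used here.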

Additional observations from a re-analysis of the deposited data

Results flagged for a closer look

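Fbn2 moved in opposite directions with c-Jun in the ESC and MEF comparisons. Its log2 change was 2.64 in ESC, from 2 to 32 counts, and -3.36 in MEF, from 1558 to 145 counts, a difference of 6.0. The difference was not tested, since each group has 1 library. Set against WT ESC, the ESC change was -1.18, the same sign as in MEF.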

How the results depend on the processing

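Each count of members called higher or lower in the 12 comparisons stayed within 1.5 times its main value with DESeq2 size factors, TPM, no filter and a pseudocount of 0.25. Some calls still changed. Among them, Loxl1 with c-JunDN in KSM cells passed the threshold with a pseudocount of 0.25 (1.01 on the log2 scale). So did Loxl2 with Jdp2 in KSM cells with TPM (1.05) and total count scaling (1.06), and Loxl3 with Oct4 in MEF with TPM (-1.01). With total count scaling, members lower in DR than in WT MEF numbered 1 (Eln) in place of 2. With WT as the control, members lower with c-Jun in ESC numbered 4 (Fbn2, Fbln5, Lox and Loxl3) in place of 0, and with c-JunDN in MEF 0 were higher in place of 1 and 3 lower (Fbn2, Loxl2 and Loxl3) in place of 0. Fbn2 with c-Jun in ESC then changed sign, to -1.18 from 2.64. The WT and matched control libraries differ in depth and in fibroblast markers, and the cause was not tested. Set against WT, the 1 member higher with c-Jun in MEF was Loxl1 in place of Tgm2. Fbn1 and Fbn2 were no longer called higher with c-Jun in ESC. Fbn1 and Loxl4 with c-Jun and with Jdp2 in MEF, and Loxl3 and Loxl4 with Oct4, were lower against WT but not against DR. For these comparisons with WT in place of the matched control, the share of all genes called was not computed. Of the alternative values of members past the 2-fold threshold, 290 stayed within the interval around the reported value, 38 moved outside it with the same sign and 1, Fbn2, changed sign. Members measured but inside the threshold changed sign in 9 of 22 values with WT as the control (Fbln5 with c-JunDN, Jdp2 and Oct4, Loxl1 with c-JunDN and Jdp2, Loxl2 with c-Jun and Oct4, and Fbn1 and Tgm2 with c-JunDN, all in MEF) and in 1 of 52 with TPM (Fbn1, c-JunDN in KSM cells), and in 0 of 52 under each of the other 4 settings. With Spearman in place of Pearson correlation, the 5 genes most like Eln, Loxl2 and Tgm2 shared 0, 0 and 1 (Csf1r) with those given.

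The median change of all genes moved by over 0.1 on the log2 scale in c-Jun ESC (0.20 with total scaling, 0.36 with TPM, -0.19 with WT as the control), DR against WT MEF (0.36 with total scaling, 0.11 without the filter), WT MEF against WT ESC (0.14 with DESeq2, -0.27 with total scaling, 0.11 with TPM, 0.19 without the filter), the uninduced line against WT ESC (0.17 with DESeq2, 0.18 without the filter) and KSM against MEF with DR (0.11 and -0.11 with total scaling and TPM). No paired analysis was possible because the labels carry no replicate numbers and each group has 1 library. For the same reason no fit without a library was made. The search for peaks near the members, at 10 kb or 50 kb, was not run, since no mm9 annotation was used here. Depth limits Eln in ESC and KSM cells, Lox in the c-Jun line, and Loxl4 in uninduced ESC, which rest on few counts.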

Other observations

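Collagens are the other substrate of lysyl oxidases, and the 5 fibrillar collagen genes read here had a different order from elastin. In MEF 0 were higher and 3 lower with c-Jun than with DR, led by Col5a2 (-1.43 on the log2 scale), Col1a1 (-1.42) and Col1a2 (-1.30). With Oct4 4 were lower, led by Col1a2 (-1.89), and with c-JunDN and with Jdp2, where Eln was higher, 0 of 5 were called. With c-Jun in ESC, Col1a1 was at 471 CPM against 6.33 and Col5a1 at 385 against 19.4. In KSM cells Col1a2 was higher with Jdp2 (1.28) and Col1a1 lower with Oct4 (-1.21).

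Enzymes that prepare or remove these fibres also differed. Bmp1, which cleaves procollagen and activates the Lox precursor, was at 375 CPM in induced ESC against 1.81 uninduced, a ratio of 208 (80.8 to 763), and at 1816 CPM with c-Jun in MEF against 503 with DR, a ratio of 3.61 (3.37 to 3.87). Plod2, a lysyl hydroxylase of collagen, was 2.90-fold higher with Jdp2 in MEF (2.56 to 3.29). Among elastin-degrading enzymes, Mmp9 was at 55.5 CPM with Jdp2 in MEF, 19.7 with c-JunDN, 10.5 with c-Jun and 2.90 with DR. Mmp12, macrophage elastase, was at 0.999, 2.46, 46.0 and 7.25 CPM in the same order, highest where Eln was lowest of these 4. The macrophage list summed to 34.0, 174, 104 and 83.7 CPM in the same order. With c-Jun most of the sum was Csf1r, at 73.0 CPM against 4.35 with DR. Lyz2 was lower there (23.0 against 60.9), as were Emr1, C1qa, C1qb and C1qc on few counts, and Cd68 was at 5.00 against 4.84. The part of this list in the Mmp12 values was not tested.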
